A study of Mus musculus with 6 samples.

Results

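Replication-dependent histone genes supply the H1, H2A, H2B, H3 and H4 proteins that package newly made DNA during S phase. They lie in clusters, and most of their mRNAs end in a short stem-loop instead of a poly(A) tail. The stem-loop is bound by SLBP and cut by a complex that holds the U7 small nuclear RNA and the endonuclease CPSF3, and histone mRNA is degraded when DNA synthesis stops. Some members can also be made as polyadenylated mRNA from a signal further downstream, in cells that are leaving the cell cycle. In the tooth germ, proliferation of epithelium and mesenchyme shapes the cap and bell stages.

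The members were the rows of the deposited count tables whose symbol names a gene of the Hist1, Hist2, Hist3 or Hist4 cluster, and 68 of the 23420 symbols qualified. Of these, 54 belong to Hist1 on chromosome 13, 10 to Hist2 on chromosome 3, 3 to Hist3 on chromosome 11 and 1 to Hist4 on chromosome 6. By type, 6 encode H1 linker histones, 18 H2A, 19 H2B, 12 H3 and 13 H4. One H2B member, Hist3h2bb-ps, is a pseudogene.

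RNA-seq was made from tooth germs of C57BL/6 mouse embryos at E15.5, 3 libraries of the Smad7-/- genotype and 3 wild type. Smad7 encodes an inhibitor of TGF-beta and BMP receptor signalling, and the study asks how its loss alters the tooth germ transcriptome. The labels name the genotype alone, with no allele, promoter or clone, and do not say whether a library holds 1 embryo or several. Nothing ties the libraries to separate litters, so p-values measure the spread between these libraries. Library totals were 37591888, 44021706 and 56575476 counts in Smad7-/- tooth germs, and 52137318, 48911104 and 47800685 in wild-type tooth germs. Smad7 itself had 80, 62 and 41 counts in the Smad7-/- libraries, against 1097, 934 and 859 in the wild-type libraries. All 7 markers of dental epithelium and all 6 of dental mesenchyme were detected, as the tissue label says. The first principal component, computed without the histone genes, put Smad7-/- 1 and 2 with wild type 1 on one side, and Smad7-/- 3 with wild type 2 and 3 on the other. It held 33.6% of the variance and crossed the genotypes. The values on each side of it are therefore given beside the sums and the 7 genes with the most counts below. Ddx3y was at 0 CPM and Xist high in Smad7-/- 3 (Xist 365 CPM) and wild type 1 (195 CPM). The other libraries had 117 to 166 CPM of Ddx3y and at most 0.202 CPM of Xist. Each side thus sets 2 libraries of 1 genotype against 1 of the other, which also differs from them in sex. Genotype and sex cannot be told apart within a side.

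The stem-loop marks the processed end of most of these mRNAs. A model that holds it can also run on to a poly(A) signal, so a match does not tell which end an mRNA has. Its sequence was searched in the transcript models on the sense strand. The pattern was GG, any 2 bases, CTTTT, any 1 base, AG, any 2 bases and CC. It was present in a model of 44 of the 68 members, and in 98 of 58797 coding transcripts of the mouse annotation (0.167%), 46 of which belong to members. In the members it started 21 to 58 bases after the stop codon. A model that ends sooner cannot show it, such as those of Hist2h2bb and Hist1h3h, with 0 bases after the stop codon. The sites below are from GENCODE M21 transcripts on GRCm38, 5′ to 3′, with the 16 bases of the stem-loop in capitals. The first 5 belong to genes with the most histone counts, whose models run on well past the stem-loop.
Hist1h1c, chr13:23739507-23739536, plus strand: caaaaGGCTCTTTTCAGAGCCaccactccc
Hist3h2ba, chr11:58949344-58949373, plus strand: ccaaaGGCTCTTTTCAGAGCCaccttccaa
Hist3h2a, chr11:58955167-58955196, plus strand: ccaaaGGCTCTTTTCAGAGCCacccacaac
Hist2h3c1, chr3:96247322-96247351, plus strand: acaaaGGCTCTTTTCAGAGCCaccacagct
Hist1h4i, chr13:22040957-22040986, minus strand: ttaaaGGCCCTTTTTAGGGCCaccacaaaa
The other 4 belong to members of low count whose models end soon after it.
Hist1h2ag, chr13:22042474-22042503, minus strand: acaaaGGCTCTTTTCAGAGCCacctaacct
Hist1h3c, chr13:23745038-23745067, minus strand: aaaaaGGCTCTTTTAAGAGCCacctaagat
Hist1h4b, chr13:23757361-23757390, plus strand: caaaaGGTCCTTTTCAGGACCactcactga
Hist1h4h, chr13:23531453-23531482, plus strand: ccaaaGGCCCTTTTCAGGGCCgcccacatt

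The same 16 bases stood in Hist1h1c, Hist3h2ba, Hist3h2a, Hist2h3c1 and the low-count Hist1h2ag, so the stem-loop itself did not set these genes apart. In the 44 members, 26 shared that sequence.

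Few reads came from histone genes. The 68 members together had 29007 counts over the 6 libraries. In counts per 1000000 (CPM, scaled by TMM normalisation), their sum was 89.7, 113.9 and 100.2 in Smad7-/- tooth germs, against 83.6, 112.4 and 106.1 in wild-type tooth germs. The groups overlapped throughout, with means of 101.3 ± 12.2 CPM in Smad7-/- and 100.7 ± 15.1 CPM in wild type (SD, n = 3 each). On the log2 scale the Smad7-/- minus wild-type difference of the sum was 0.01, against a pooled SD of 0.20. Within the sides of the principal component it was 0.27 and -0.12, each from 2 libraries against 1 of the other sex and without a test.

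H1 and H2B transcripts carried most of these reads. H1 members held 38.3% of the histone counts, H2B 37.1%, H2A 17.8%, H3 3.94% and H4 2.83%. Hist1h1c alone held 37.3% and Hist3h2ba 20.7%, so the shares rest on few genes. The recovery of mRNA without a poly(A) tail is not given in the sources used here. The shares are therefore shares of reads and need not be those of expression. Summed H1 averaged 41.6 ± 3.25 CPM in Smad7-/- and 35.9 ± 6.69 CPM in wild type. H2B averaged 36.5 ± 7.24 CPM in Smad7-/- and 38.8 ± 5.14 CPM in wild type. H2A averaged 16.8 ± 1.79 CPM in Smad7-/- and 18.9 ± 4.24 CPM in wild type. Counts of the core histones H3 and H4 were low in both genotypes. H3 averaged 3.77 ± 0.421 CPM in Smad7-/- and 4.13 ± 0.259 CPM in wild type. H4 averaged 2.58 ± 0.775 CPM in Smad7-/- and 3.08 ± 0.755 CPM in wild type (SD, n = 3 each throughout). For every type the libraries of the genotypes overlapped. By cluster, Hist1 held 52.6% of the counts, the 3 Hist3 genes 36.3%, Hist2 10.9% and Hist4h4 0.155%. The Hist2 sum averaged 9.59 ± 1.41 CPM in Smad7-/- and 12.2 ± 2.06 CPM in wild type, and it also overlapped.

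**Figure D1:**
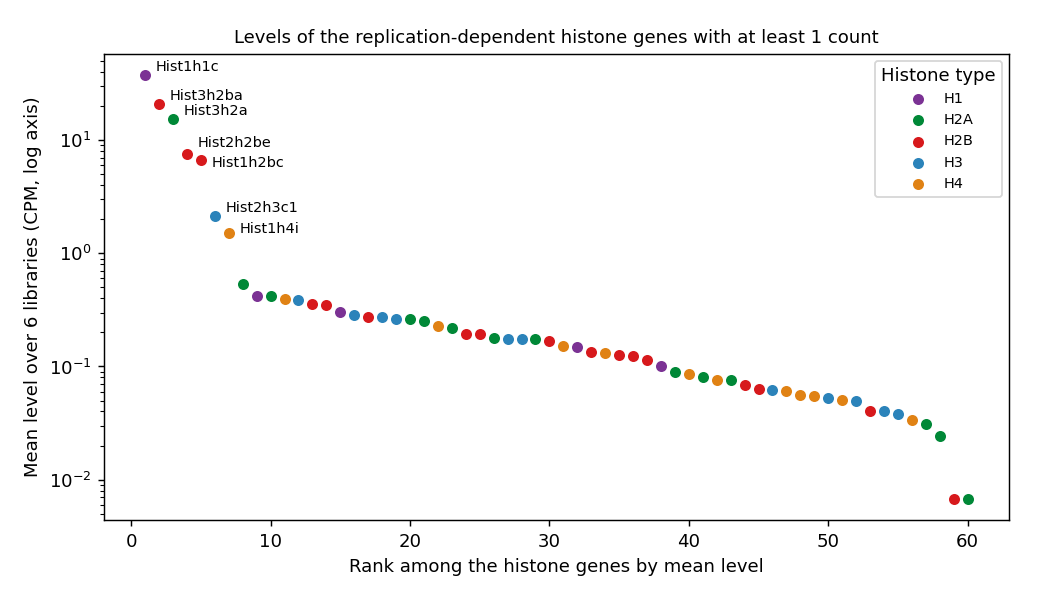
Mean level of each histone gene with at least 1 count (y axis, CPM on a log scale, not divided by length) against its rank (x axis), coloured by histone type. 7 genes lie between 1.501 and 37.8 CPM and the other 53 below 1 CPM.

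The counts came mainly from 7 genes, Hist1h1c, Hist3h2ba, Hist3h2a, Hist2h2be, Hist1h2bc, Hist2h3c1 and Hist1h4i, which held 91.2% of all histone counts and 89.2% to 93.1% in single libraries. The other 61 members averaged under 1 CPM each, and 53 of them had a count in some library. This split was made after the levels were seen and is a description. Per kilobase of GENCODE exon, Hist3h2ba had 34.3 CPM, Hist1h1c 24.2, Hist3h2a 7.22, Hist1h2bc 5.83, Hist2h2be 2.90, Hist1h4i 2.06 and Hist2h3c1 1.17 CPM per kilobase. The next member on that scale, Hist2h2bb, had 0.931 CPM per kilobase. The order depends on the gene model: over the shorter RefSeq spans of GRCm38.p6, Hist1h1c had 52.1 CPM per kilobase, Hist3h2ba 45.6 and Hist3h2a 30.5.

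The 7 genes had long annotated 3′ parts. All 7 of 7 had a longest model with at least 150 bases after the stop codon, against 21 of the other 61 members. A poly(A) signal, AATAAA or ATTAAA, lay in the last 40 bases of the model in 6 of the 7, against 10 of the other 61. A stem-loop match was in a model of 5 of the 7, against 39 of the other 61. Also 39 of the other 61, not the same members, have fewer than 150 bases after the stop codon in the longest model. Some models end at the stop codon. A stem-loop or poly(A) signal past such an end cannot be seen, so these shares compare annotated models. Hist1h1c, which encodes a somatic linker histone, has 880 bases after its stop codon, 840 of them past the stem-loop. Hist3h2ba and Hist3h2a, the H2B and H2A genes of the small Hist3 cluster, run 169 and 1643 bases past theirs. Hist2h3c1 (H3) runs 1167 bases past it and Hist1h4i (H4) 330. Hist2h2be (H2B), with 2192 bases after the stop codon, and Hist1h2bc (H2B), with 742 bases over 2 exons, hold no match, and Hist1h2bc is the one of the 7 without the poly(A) signal.

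A long 3′ part alone did not go with a high level. Hist1h1d, Hist1h2ac and Hist1h1e have 4931, 2058 and 1209 bases after the stop codon and averaged 0.302, 0.540 and 0.424 CPM. Hist4h4 and Hist1h2be have both a long 3′ part and the poly(A) signal, and they averaged 0.152 and 0.194 CPM. The settings and gene models of the read counting and the treatment of RNA without a poly(A) tail are not given in the sources used here, and their part in these levels was not tested.

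**Figure D2:**
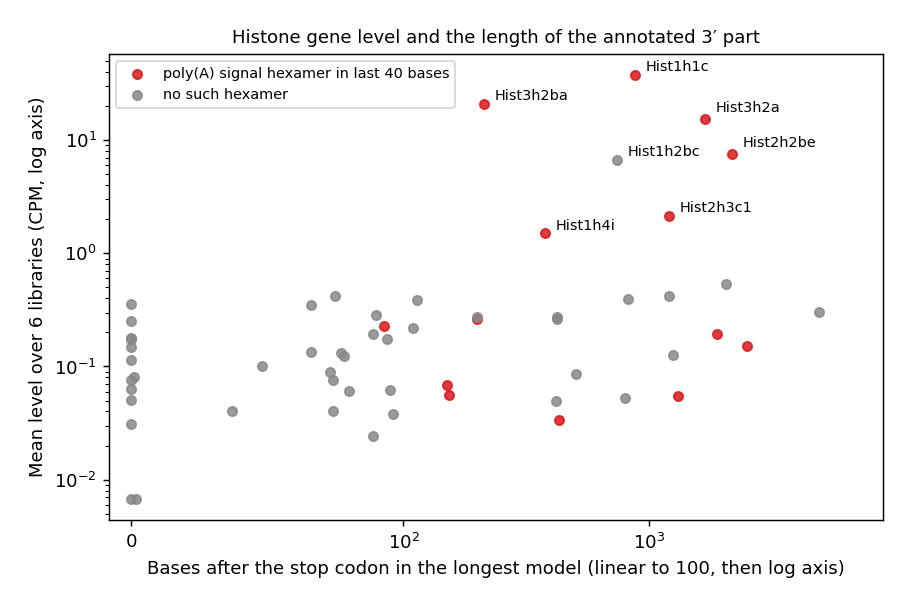
Mean level of each detected histone gene (y axis, CPM, log scale) against the bases after the stop codon in its longest GENCODE M21 model (x axis, linear to 100 and then log). Red points have a poly(A) signal in the last 40 bases; 6 of the 7 labelled genes are red, and most members below 1 CPM are grey.

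The promoters of the members also share sequence. RefSeq windows of GRCm38.p6, from 250 bases before to 50 bases after the gene start, matched 61 of the 68 members. The CCAAT box, searched as CCAAT on both strands, was in all 49 windows of H1, H2A, H2B and H3 genes and in 3 of 12 of H4 genes, against 41.06% of 27025 genes. TATAAA was in 35 of the 61, against 15.67% of all genes. The octamer ATTTGCAT, the element of H2B promoters bound by POU2F1, was in 7 of 16 H2B and 7 of 17 H2A windows and in 0 of 6 H1, 0 of 10 H3 and 0 of 12 H4 windows, against 1.97% of all genes. Many H2A and H2B genes are divergent neighbours, so a single octamer can count for both. These are matches of letters and do not show binding.

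The genotypes were compared gene by gene with edgeR's quasi-likelihood test, adjusted over the 15284 genes with enough counts. 25 of the 68 members were tested. None passed an adjusted p of 0.05, and 0 of 25 had an unadjusted p under 0.05. Over all tested genes 4 passed (0.0262%) and 5.14% had an unadjusted p under 0.05. DESeq2 fitted 60 members and called 0, with 1 at an unadjusted p under 0.05, Hist2h2be, while calling 0.351% of the genes it tested. The CPM ranges of the genotypes overlapped in all 25 tested members, against 8.88% of tested genes without overlap. Of the 25, 17 had a log2 fold change below 0, against 50.9% of all tested genes. Their median log2 fold change, Smad7-/- over wild type, was -0.09, and they ran from -0.88 to 0.74. The median over all tested genes was -0.0028.

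**Figure D3:**
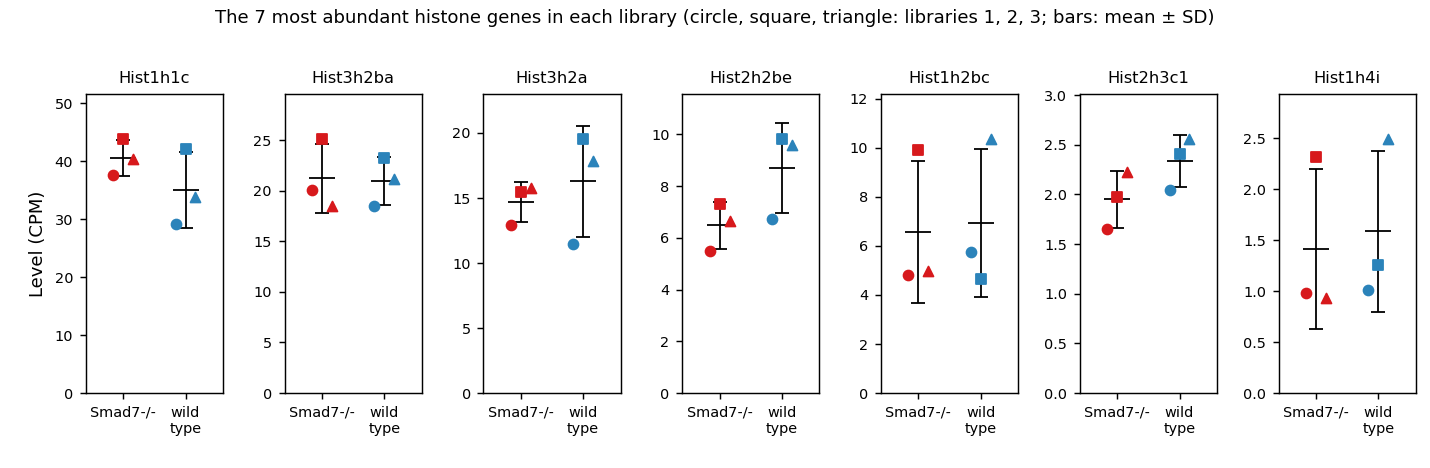
CPM (y axes, each from 0, not divided by length) of the 7 histone genes with the most counts in 3 Smad7-/- libraries (red) and 3 wild-type libraries (blue); circle, square and triangle are libraries 1, 2 and 3, and bars are mean ± SD. In every panel the genotypes overlap, and Hist1h2bc and Hist1h4i are each high in Smad7-/- 2 and wild type 3.

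Hist1h1c (chr13:23738808-23740367, plus strand) had 37.5, 43.7 and 40.3 CPM in Smad7-/- tooth germs, against 29.1, 42.1 and 33.9 CPM in wild-type tooth germs. One wild-type library lay among the Smad7-/- libraries and the other 2 below them. Its log2 fold change was 0.21 ± 0.14 (SE), with a 95% interval of 0.940 to 1.43-fold. It was 0.48 and 0.10 on the sides of the principal component.

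Hist3h2ba (chr11:58948920-58949533, plus strand) had 20.1, 25.1 and 18.5 CPM in Smad7-/-, against 18.5, 23.2 and 21.2 CPM in wild type. Its neighbour Hist3h2a (chr11:58954685-58956830, plus strand) had 12.9, 15.4 and 15.8 CPM in Smad7-/-, against 11.5, 19.5 and 17.8 CPM in wild type. The genotypes overlapped in both, and Hist3h2a was lowest in the first library of each. The log2 fold changes were 0.02 ± 0.14 for Hist3h2ba, with an interval of 0.812 to 1.26-fold, and -0.14 ± 0.19 for Hist3h2a, with an interval of 0.673 to 1.22-fold. On the sides of the principal component Hist3h2ba gave 0.28 and -0.26, and Hist3h2a 0.30 and -0.24. Hist3h2a overlaps Trim17 on the same strand, which had 54 counts in all.

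Hist2h2be (chr3:96221119-96223738, plus strand) had the smallest p of the members. It had 5.51, 7.29 and 6.65 CPM in Smad7-/-, against 6.71, 9.81 and 9.59 CPM in wild type. The wild-type libraries 2 and 3 lay above every Smad7-/- library, and wild type 1 lay among them. Its log2 fold change of -0.42 ± 0.19 had an unadjusted p of 0.052 and an adjusted p of 0.963 (edgeR), with an interval of 0.554 to 1.00-fold. It was -0.08 and -0.55 on the sides of the principal component.

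Hist1h2bc (chr13:23684199-23692908, plus strand) had 4.82, 9.91 and 4.96 CPM in Smad7-/-, against 5.75, 4.65 and 10.3 CPM in wild type. Hist1h4i (chr13:22040636-22041362, minus strand) had 0.985, 2.32 and 0.937 CPM in Smad7-/-, against 1.01, 1.25 and 2.49 CPM in wild type. Both were high in the same libraries, Smad7-/- 2 and wild type 3, and these lie on different sides of the principal component. The exact Poisson 95% intervals of Hist1h2bc in these libraries, 8.999 to 10.9 and 9.45 to 11.3 CPM, lay above those of the other 4, the highest of which ended at 6.45 CPM. For Hist1h4i they were 1.89 to 2.82 and 2.06 to 2.98 CPM, and the highest upper bound of the others was 1.61 CPM. These intervals cover counting error only. With 1 high library in each genotype, the log2 fold changes were -0.08 ± 0.37 for Hist1h2bc and -0.17 ± 0.45 for Hist1h4i. On the sides of the principal component Hist1h2bc gave 0.26 and -0.48, and Hist1h4i 0.58 and -0.92.

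Hist2h3c1 (chr3:96246685-96248509, plus strand) had 1.65, 1.98 and 2.22 CPM in Smad7-/-, against 2.05, 2.41 and 2.55 CPM in wild type. The genotypes overlapped between 2.05 and 2.22 CPM, and the log2 fold change was -0.26 ± 0.24. It was -0.18 and -0.16 on the sides of the principal component.

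**Figure D4:**
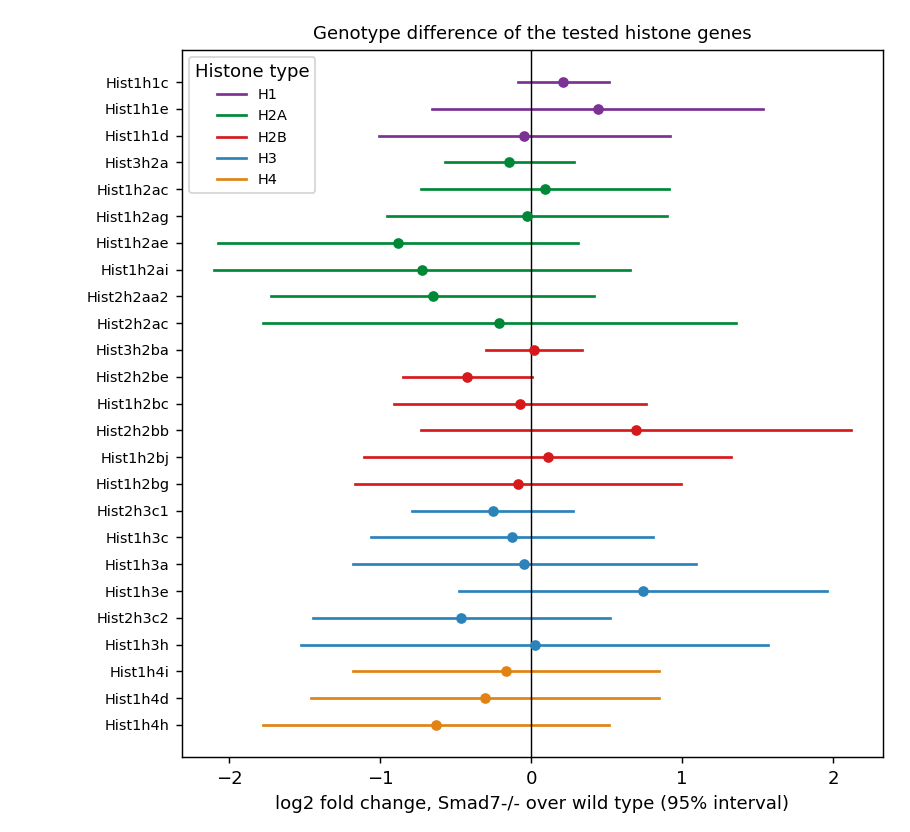
Log2 fold change of each of the 25 tested histone genes, Smad7-/- over wild type (x axis; points are estimates and lines 95% intervals), grouped by type and ordered by mean CPM within a type. Every line reaches 0, and those of Hist1h1c and Hist3h2ba are the shortest.

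The members of low count gave wide intervals. Over the 25 tested members the standard error ran from 0.14 to 0.70 on the log2 scale, with a median of 0.48, and the median 95% interval reached 1.07 to either side. Among H1 genes, Hist1h1e had 13, 22 and 35 counts in Smad7-/-, against 21, 26 and 7 in wild type, and Hist1h1d had 8, 11 and 24, against 16, 16 and 14. Their log2 fold changes were 0.44 ± 0.49 and -0.05 ± 0.43. The S-phase linker histone Hist1h1a was not tested, with 2, 4 and 17 counts in Smad7-/-, against 4, 2 and 2 in wild type, and its highest library was Smad7-/- 3. Hist1h1e overlaps Hist1h2be, so their reads are uncertain.

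Among H2A genes the widest fall was that of Hist1h2ae, at -0.88 ± 0.54, with 3, 6 and 18 counts in Smad7-/-, against 19, 13 and 19 in wild type. Smad7-/- 3 reached the wild-type range and the other 2 did not, and the estimate was -1.62 without Smad7-/- 3. Hist1h2ac was at 0.09 ± 0.37 and Hist1h2ag at -0.03 ± 0.42. Among H2B genes Hist2h2bb had the highest estimate, 0.69 ± 0.64, from 6, 11 and 51 counts in Smad7-/-, against 9, 20 and 12 in wild type. That value rested on Smad7-/- 3, and without this library it was -0.41.

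Among H3 genes Hist1h3e stood at 0.74 ± 0.55, with 5, 16 and 30 counts in Smad7-/-, against 14, 7 and 10 in wild type. Hist2h3c2 was at -0.46 ± 0.44, Hist1h3c at -0.13 ± 0.42 and Hist1h3a at -0.05 ± 0.51. Among H4 genes Hist1h4h was at -0.63 ± 0.52, with 6, 4 and 16 counts in Smad7-/-, against 17, 11 and 14 in wild type, and Hist1h4d at -0.31 ± 0.52. Smad7-/- 3, the library with the highest total, also had the most counts of the Smad7-/- libraries in Hist1h3e, Hist1h4h and Hist1h4d. It was the highest of them after scaling too, at 0.521, 0.278 and 0.625 CPM in these genes. Smad7-/- 3 was also the only Smad7-/- library with high Xist, so its depth and its sex cannot be told apart.

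Summed over the 61 members of low count, the level was 6.18, 8.19 and 10.8 CPM in Smad7-/-, against 9.07, 9.48 and 8.27 CPM in wild type. Smad7-/- 3 was the highest of the 6 libraries and Smad7-/- 1 the lowest. The means were 8.40 ± 2.33 CPM in Smad7-/- and 8.94 ± 0.616 CPM in wild type. Within the sides of the principal component the log2 difference was -0.35 and 0.29. The 7 genes with most counts did not share this order, at 83.5, 105.8 and 89.3 CPM in Smad7-/-, against 74.6, 102.9 and 97.8 CPM in wild type. The number of members with a count was 50, 55 and 57 in the Smad7-/- libraries, against 52, 57 and 53 in the wild-type libraries.

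**Figure D5:**
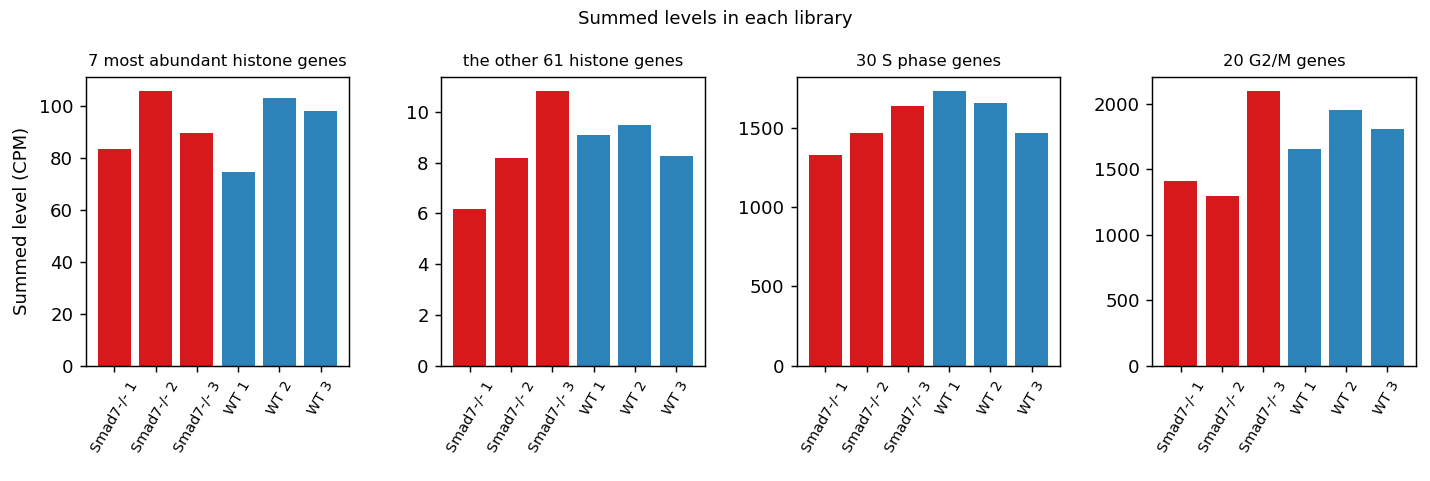
Summed CPM per library (bars from 0; red, Smad7-/-; blue, wild type, WT) of the 7 histone genes with the most counts, of the other 61, and of lists of S phase and G2/M genes. Smad7-/- 3 is the highest library for the other 61 and for the G2/M genes.

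8 members had 0 counts in every library, where 3 counts, the limit a count of 0 allows, correspond to 0.0521 to 0.0799 CPM. Hist1h1t and Hist1h2aa, both testis histones in the mouse, share no stretch of 75 bases with another gene. The other 6 are Hist1h2ao, Hist1h2ap, Hist1h2bq, Hist1h2br, Hist1h4m and Hist2h2aa1. In each of them under 15% of such stretches are their own, which also holds for 4 of the 60 members with counts. The cut of 15% is arbitrary, and other members with counts lie just above it, at 15.4% and 16.6%. The levels of near-identical copies are uncertain, because the handling of reads that map to several places is not given in the sources used here. Of the tested members Hist2h2aa2, Hist1h3h and Hist1h2ai are among those 4.

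The replication-independent variants, most of which are expressed through the cell cycle and largely from polyadenylated mRNAs, included genes with more counts per length than any member. Per kilobase of GENCODE exon, H3f3b and H3f3a, which encode H3.3, had 515 and 132 CPM per kilobase and the linker variant H1f0 had 364. H2afz, which encodes H2A.Z, had 118. Others of the 11 lay among the highest members on that scale, such as Cenpa, the centromeric H3 variant, at 9.97 and the macroH2A gene H2afy at 22.5, against 34.3 for Hist3h2ba and 24.2 for Hist1h1c. H3f3b had 1617, 1650 and 1457 CPM in Smad7-/-, against 1626, 1411 and 1437 CPM in wild type, and overlapped, with a log2 fold change of 0.08 ± 0.11. H1f0 was at -0.04 ± 0.10 and H3f3a at 0.09 ± 0.11. None of the 11 variants passed the test, with 3 above and 8 below 0 and a median of -0.05. H2afx, whose protein marks DNA double-strand breaks, had 72.0, 78.2 and 80.6 CPM in Smad7-/-, against 88.8, 95.003 and 86.4 CPM in wild type. Those groups did not overlap, and the log2 fold change of -0.23 ± 0.09 had an unadjusted p of 0.027 and an adjusted p of 0.873 (edgeR). Of the 11 variants, 2 had groups without overlap, H2afx among them, against 8.88% of all tested genes. Only H2afx, 1 of the 11, had an unadjusted p under 0.05 (edgeR), against 5.14% of all tested genes. The naming of H2afx followed from its values and not from the rule for named genes.

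The genes that make, cut and handle histone mRNA and protein showed no called change either. Of 17 genes of 3′ end formation and turnover, 0 passed, with 6 above and 11 below 0 and a median of -0.04. The 3 with the most counts were Snrpb, a core protein of spliceosomal and U7 particles, at -0.04 ± 0.10, Ncbp1, of the nuclear cap-binding complex, at -0.07 ± 0.10, and the scaffold Sympk at 0.01 ± 0.09. The stem-loop binding protein gene Slbp, named outside the rule, had 36.2, 37.0 and 42.3 CPM in Smad7-/-, against 42.6, 39.6 and 38.2 CPM in wild type, and the libraries overlapped. Its log2 fold change was -0.06 ± 0.10. Rnu7, the U7 gene, had 0 counts in every library. Whether these libraries recover small nuclear RNA is not given in the sources used here, so this does not tell the level of U7.

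Of 11 genes of histone gene transcription, 0 passed, with 2 above and 9 below 0 and a median of -0.05. Yy1, a zinc-finger factor, was at 0.05 ± 0.08, Pou2f1 at -0.06 ± 0.13 and Npat, the coactivator of histone loci, at -0.04 ± 0.10. Of 18 chaperone and acetyltransferase genes, 0 passed, with 7 above and 11 below 0 and a median of -0.04. Npm1 was at 0.02 ± 0.10, Rbbp4 at -0.09 ± 0.10 and Nap1l1 at 0.05 ± 0.12.

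Most estimates of S phase and G2/M genes lay below 0, without a call. Of 30 S phase genes, 0 passed, 28 were below 0 and the median was -0.11. Of 20 G2/M genes, 0 passed, 20 were below 0 and the median was -0.15. Genes of a list rise and fall together across libraries, so these counts are not independent. The S phase sum was 1330, 1470 and 1637 CPM in Smad7-/-, against 1734, 1653 and 1464 CPM in wild type. The G2/M sum was 1408, 1292 and 2100 CPM in Smad7-/-, against 1652, 1952 and 1807 CPM in wild type. Both overlapped, with Smad7-/- 3 apart from the other 2 Smad7-/- libraries in G2/M. Rrm1, a ribonucleotide reductase subunit, was at -0.20 ± 0.12, Uhrf1 at -0.27 ± 0.14 and Rfc1 at -0.07 ± 0.09. Top2a was at -0.25 ± 0.18, Mki67 at -0.14 ± 0.32 and Ccna2 at -0.22 ± 0.16. In whole tooth germs, fewer cycling cells and less RNA per cell cannot be told apart.

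Markers of other cell types were summed over the same libraries. Summed macrophage markers had 125, 137 and 127 CPM in Smad7-/-, against 73.9, 72.4 and 98.4 CPM in wild type, with 5 of 5 above 0 and no overlap of the sums. Summed dental mesenchyme markers had 249, 254 and 269 CPM in Smad7-/-, against 191, 161 and 205 CPM in wild type, with 6 of 6 above 0 and no overlap. Dental epithelium markers had 8547, 9379 and 7751 CPM in Smad7-/-, against 9964, 9789 and 9146 CPM in wild type, with 7 of 7 below 0 and an overlap. Red blood cell markers, of which 5 of 7 are in the tables, had 17.4, 16.8 and 28.7 CPM in Smad7-/-, against 50.5, 35.3 and 38.8 CPM in wild type, with no overlap, and the 3 tested were below 0. Sums of skeletal muscle, endothelium and cartilage markers overlapped. Of single markers, 4 of 5 macrophage, 5 of 6 mesenchyme, 2 of 7 epithelium and 3 of 3 tested red cell genes had no overlap. Over all tested genes this share was 8.88%. An unadjusted p under 0.05 (edgeR) was reached by 5, 4, 2 and 2 of these, against 5.14% of all tested genes. Skeletal muscle had 1 of 4 tested in each count, endothelium and cartilage 0. Markers of a cell type rise and fall together, so these counts are not independent. None of these genes passed the adjusted threshold, and the part of cell makeup in the histone values was not tested.

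The non-member genes whose level ran most like the summed histone level over the 6 libraries were Paqr4, Ahrr, Csgalnact1, Slc16a5, Invs, Pcdhb20, Cers2, Rhcg, Gm10536 and Setd4. Pearson's r of the log2 CPM ran from 0.966 to 0.990, and these are the highest among all tested genes on 6 points that share library and depth. Slc16a5, Gm10536 and Rhcg had low levels, with means of 0.166, 0.161 and 0.251 CPM, and the others ran from 2.94 to 128 CPM. No gene of the S phase, G2/M or 3′ processing lists was among them. So few genes, drawn from all tested genes, would rarely include a gene of these short lists. Their absence therefore cannot tell whether the histone level follows those lists.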

How the data were processed

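RNA was sequenced from 6 mouse tooth germ libraries, 3 Smad7-/- and 3 wild type, grouped by the genotype label. The authors deposited raw read counts per gene symbol, made with HISAT2 and featureCounts on mm10, per the submitters' processing notes; versions, annotation, strand setting, read length and multi-mapped reads are not given in the sources used here. Libraries were made with a TruSeq RNA kit from 1 µg of total RNA, per the labels' protocols. Totals were 37591888 to 56575476 counts. Smad7-/- was compared with wild type in edgeR 4.0.16 under R 4.3.3 (minimum count 10, minimum total 15, TMM factors 0.984 to 1.02, robust quasi-likelihood F-test, Benjamini-Hochberg threshold 0.05). A log2 fold change has its SE and a 95% interval. The common dispersion was 0.0253.

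Per histone type the text names the 3 members with the highest mean CPM, the tested members with the largest rise and fall, and any member past the threshold; per companion list, the genes past the threshold or else the 3 highest; and the 10 genes most like the summed members. Hist1h1a, Hist4h4, Hist1h2be, Hist2h2aa2, Hist1h3h, Hist1h2ai, Hist1h4b, Hist3h2bb-ps, Slbp, Rnu7, Trim17, H2afx, H2afz, H2afy, Cenpa and the 8 members at 0 are named outside this rule. The members and lists were chosen with earlier results of these data known. The fit was run on simulated counts, with changes placed only in genes of higher mean CPM. It therefore does not tell how well changes in members of low count are found. Alternatives were DESeq2 1.42.0, limma-voom 3.58.1, other normalisations and filters, a replicate block, libraries left out, and covariates for the principal component and for sex (Xist was high in Smad7-/- 3 and wild type 1). Stem-loops, ends and 75-base stretches came from GENCODE M21 transcripts, spans and promoter windows from RefSeq GRCm38.p6. Figures used matplotlib 3.10.9.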

Additional observations from a re-analysis of the deposited data

How the results depend on the processing

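No histone member and no gene of the companion lists passed the threshold under any alternative run (DESeq2, limma-voom, 2 other normalisations, 2 other filters, the replicate block, each library left out, and the covariates for the principal component and for sex). Over all genes the count of 4 became 59 with DESeq2 and ranged from 1 to 7 with 1 library left out, at 2, 1 and 7 without Smad7-/- 1, 2 and 3. The replicate block also gave 4. Same-numbered libraries correlated at 0.17, -0.03 and 0.09 in their deviations from the group means. Libraries of unlike number were not compared, so these values cannot decide whether the numbers mark pairs. Under the block Hist1h1c, above 0, and Hist2h2be, below 0, had an unadjusted p under 0.05 (edgeR). The lowest adjusted p of the members was then 0.478 (edgeR). Other edgeR runs also gave such unadjusted p-values. These were Hist2h2be with no filter, Hist1h2ai without Smad7-/- 2, Hist1h2ae without Smad7-/- 3, and Hist3h2a and Hist2h2be without wild type 1, all below 0. Hist1h1c, above 0, had one without wild type 2. The share of all tested genes with such a p is not given for these runs or for DESeq2, so these counts have no background. The log2 difference of the summed histone share of the library total, 0.02, became -0.20 without the member with most counts of each type. With each library left out it ranged from -0.12 to 0.11, and over the 61 members of low count, a setting chosen after seeing the data, it was -0.12. Of 273 refits of the 19 named members, 250 kept their direction and 23 reversed, in 11 members, with a lowest adjusted p of 0.443. With the principal component as a covariate Hist1h1d was at 0.045 and Hist3h2a at 0.027. With each library left out Hist1h1d ran from -0.40 to 0.13, Hist3h2a from -0.35 to 0.0065, Hist1h2ac from -0.071 to 0.27, Hist1h2ag from -0.32 to 0.23, Hist3h2ba from -0.12 to 0.11, Hist1h2bc from -0.50 to 0.33, Hist2h2bb from -0.41 to 1.06, Hist1h3c from -0.36 to 0.068, Hist1h3a from -0.51 to 0.28, Hist1h4i from -0.72 to 0.31 and Hist1h4d from -1.08 to 0.0061. Of the 8 named members that did not reverse, Hist1h2ae ran from -1.62 to -0.57, Hist1h1e from 0.073 to 0.81, Hist1h3e from 0.28 to 1.09 and Hist1h4h from -1.17 to -0.33. The cause was not tested. The tested members had a median of 109 counts over the 6 libraries, and their median 95% interval reached 1.07 to either side on the log2 scale. That interval is not adjusted over the 15284 tested genes, so at such a width a call would need a larger change. The 25 tested members include the 7 genes with the most counts, and members outside the 25 were not tested.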
